A study of Mus musculus with 30 samples.

Results

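A set of 10 genes of fibroblast activation and matrix proteoglycans was followed through 6 groups of mouse tumours: Fap, Postn, Lum, Dcn, Aspn, Ogn, Fmod, Bgn, Pdgfra and Pdgfrb. They were chosen by name, by matching the Ensembl identifier of each row of the deposited count table to its symbol. All 10 members were found among the 55471 genes of the table, and all 10 were among the 15505 genes that passed the filter on low counts.

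Activated fibroblasts build the collagen-rich stroma around tumour cells, and these genes mark them or encode what they lay down. Fap is a cell-surface serine protease of the dipeptidyl peptidase family that cleaves after proline, and Postn encodes periostin, a secreted protein that ties collagen to integrins. Lum, Dcn, Aspn, Ogn, Fmod and Bgn encode small leucine-rich proteoglycans (SLRPs), short curved proteins that bind collagen fibrils and set their spacing and thickness. Decorin (Dcn), biglycan (Bgn) and asporin (Aspn) form class I of that family, lumican (Lum) and fibromodulin (Fmod) belong to class II, and osteoglycin (Ogn) belongs to class III. Pdgfra and Pdgfrb encode the receptor tyrosine kinases for platelet-derived growth factors, which drive the growth of fibroblasts and pericytes.

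MC38, a mouse colon carcinoma line, was grown under the skin of female C57BL/6 mice aged 6 to 8 weeks. The injected cells were wild type (WT) or had loss-of-function mutations of B2m, the light chain of MHC class I (B2mKO), or of Jak1, a kinase of interferon signalling (Jak1KO). On days 7, 10 and 13 the mice received 100 µg by vein of either anti-PD-1 (aPD1), which blocks an inhibitory receptor of T cells, or control IgG1, and about 50 mg of tumour was taken on day 14 for bulk RNA sequencing. The 6 groups were therefore WT with IgG1, WT with aPD1, B2mKO with IgG1, B2mKO with aPD1, Jak1KO with IgG1 and Jak1KO with aPD1, with 5 libraries each (n = 5 throughout) and 30 in all. No change to either gene is named for the host mice, so the host stroma is taken to carry both in every group. Whether each knockout line is a single clone is not given in the sources used here, so a difference between genotypes cannot be told apart from a difference between cell lines. Since nothing in the labels ties every library to its own mouse, the p-values speak to the spread among these libraries, which may be technical.

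Levels are CPM, the counts of a gene relative to the scaled total of its library, and library totals were 17629795 to 25944701. Differences are log2 fold changes ± standard error from edgeR's quasi-likelihood test, called at a Benjamini-Hochberg adjusted p under 0.05 over all genes tested. B2m was at 501 to 963 CPM in B2mKO libraries and at 1965 to 5459 CPM in WT libraries, and Jak1 was at 64.4 to 81.9 CPM in Jak1KO libraries and at 182 to 255 CPM in WT libraries, so the targeted genes were low where the labels say. Of 16 fibroblast markers, none was at 0 in all libraries of a group, and their summed level was 5429 to 12110 CPM in WT tumours with IgG1 and 13040 to 28970 CPM in B2mKO tumours with IgG1. Most of that sum was Col3a1 (7445 CPM on average in WT and 17450 CPM in B2mKO tumours with IgG1), whereas Pi16, Cxcl12, Clec3b, Cthrc1 and Lrrc15 averaged under 10 CPM in every group. Tumour pieces hold many cell types, so fewer cells of a type and less RNA per cell cannot be told apart, and which cells the reads came from was not measured.

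In 3 of the 6 groups a single library was the highest for most members and another the lowest. B2mKO IgG1 replicate 2 was the highest of its group for 9 of the 10 genes and replicate 5 the lowest for 8. B2mKO aPD1 replicate 4 was the highest for 8 and replicate 3 the lowest for 7, and WT aPD1 replicate 4 was the highest for 7 and replicate 1 the lowest for 8. In WT with IgG1 and Jak1KO with aPD1 no library was the highest or the lowest for more than 4 members, and in Jak1KO with IgG1 replicate 2 was the highest for 6 and replicate 1 the lowest for 5. WT IgG1 replicate 3 was the highest of its group for Dcn (2004 CPM), Aspn (93.7 CPM) and Fap and the lowest for Bgn (57.9 CPM), Pdgfrb (46.5 CPM), Postn and Fmod, and it had the lowest fibroblast sum (5429 CPM) and the highest macrophage sum (5705 CPM) of its group. B2mKO aPD1 replicate 2 shared part of this: it was the highest of its group for Dcn and the lowest for Pdgfrb, and also for Pdgfra. Its fibroblast sum (8320 CPM) was the lowest and its macrophage sum (5736 CPM) the highest of its group. In 5 of the 6 groups the library highest for Dcn was also the highest for the summed tendon and cartilage markers (11.8 to 24.1 CPM over all libraries, most of it Mkx), and in 4 of the 6 for macrophage markers. In 4 of the 6 the library highest for Fap, Postn, Lum, Ogn, Bgn, Pdgfra or Pdgfrb was the highest for the fibroblast sum. What these share was not tested. These 2 libraries, WT IgG1 replicate 3 and B2mKO aPD1 replicate 2, are called the libraries that stand apart, and a fit without both is given where it changes a member's call. Low receptor levels are among the values that set them apart, so a receptor call gained without them is not separate evidence.

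SLRP genes sit in clusters. Dcn (ENSMUSG00000019929, chromosome 10, 97479609 to 97518143) and Lum (ENSMUSG00000036446, chromosome 10, 97565128 to 97572703) are neighbours on the plus strand, and so are Aspn (ENSMUSG00000021388, chromosome 13, 49544443 to 49567565) and Ogn (ENSMUSG00000021390, chromosome 13, 49608046 to 49624501), in GRCm38 coordinates of the count files. RefSeq promoter windows (GRCm38.p6) of 6 of the 10 members were used, and Fap, Lum, Dcn and Pdgfrb were not searched. In the windows used, the 250 bases before the start site were searched on both strands for 4 short motifs. TATAAA, the core of the TATA box, was held by 12.4% of 32851 such windows. TGANTCA, the motif bound by AP-1, was held by 6.75%. GGAATG, the motif bound by TEAD factors, was held by 12.6%. GGGCGG, the core of the GC box bound by Sp1, was held by 32.7%. Postn, Aspn, Ogn and Bgn had a match in at least 1 window, and Fmod and Pdgfra had none. The windows of these first 4 genes that hold a match are shown to place the motifs, 5′ to 3′ on the plus strand with the matched letters, in either orientation, in capitals. They are chr3:54360857-54361106 for Postn, chr13:49544193-49544442 for Aspn, chr13:49607765-49608014 for Ogn and chrX:73483351-73483600 for Bgn.
Postn: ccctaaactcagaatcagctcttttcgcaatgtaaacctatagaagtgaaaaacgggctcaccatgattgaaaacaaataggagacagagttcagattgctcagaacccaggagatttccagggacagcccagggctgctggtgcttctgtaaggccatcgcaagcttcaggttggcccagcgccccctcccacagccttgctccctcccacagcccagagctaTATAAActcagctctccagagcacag
Aspn: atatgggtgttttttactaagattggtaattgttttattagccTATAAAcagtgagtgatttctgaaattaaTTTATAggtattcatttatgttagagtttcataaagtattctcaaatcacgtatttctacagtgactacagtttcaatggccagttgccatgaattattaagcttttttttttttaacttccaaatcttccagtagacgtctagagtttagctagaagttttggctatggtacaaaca
Ogn: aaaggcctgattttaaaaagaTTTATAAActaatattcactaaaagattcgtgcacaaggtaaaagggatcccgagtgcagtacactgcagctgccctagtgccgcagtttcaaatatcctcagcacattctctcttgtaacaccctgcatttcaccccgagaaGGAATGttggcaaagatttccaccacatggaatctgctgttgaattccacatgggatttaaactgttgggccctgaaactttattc
Bgn: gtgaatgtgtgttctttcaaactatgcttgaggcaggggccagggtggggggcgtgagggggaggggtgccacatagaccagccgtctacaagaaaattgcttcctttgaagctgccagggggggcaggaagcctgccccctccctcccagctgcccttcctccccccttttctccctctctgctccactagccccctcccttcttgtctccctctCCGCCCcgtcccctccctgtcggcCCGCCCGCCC
Postn held 1 TATAAA, beginning 26 bases before the start. Aspn held 2 matches of TATAAA, at 207 and 178 bases before it, Ogn held 2 that overlap each other (229 and 227 bases) and 1 GGAATG (86 bases), and Bgn held 3 matches of GGGCGG in reverse orientation within the last 34 bases. These are matches of letters and not measured binding, and a second RefSeq window of Postn further upstream held none.

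For most of the members, the genotype of the injected cells held the largest share of the variance in level. Both B2mKO groups had the highest mean of log2 CPM for 9 of the 10 genes, and WT tumours with aPD1 had the lowest for 8 of the 10. Of the variance of log2 CPM over the 30 libraries, the share between genotypes was 81.0% for Fap, 76.2% for Aspn, 75.1% for Lum, 70.4% for Postn, 68.3% for Bgn, 63.0% for Pdgfra, 62.5% for Dcn, 56.2% for Ogn and 46.2% for Pdgfrb. It was 22.5% for Fmod. More lay within groups than between genotypes for Fmod (72.9%) and Pdgfrb (51.2%). Between antibodies, averaged over the genotypes, the share was at most 3.25% (Pdgfra). An antibody difference in some genotypes only falls largely in the interaction, which held 0.756% (Bgn) to 7.24% (Postn). With the groups put in order of level for each gene, 2 of the 50 pairs of neighbours did not overlap in their libraries. These were the step from the B2mKO groups down to Jak1KO with aPD1 in Fap and in Aspn. The other 48 neighbours overlapped. How many of all genes had groups without overlap was not counted.

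**Figure D1:**
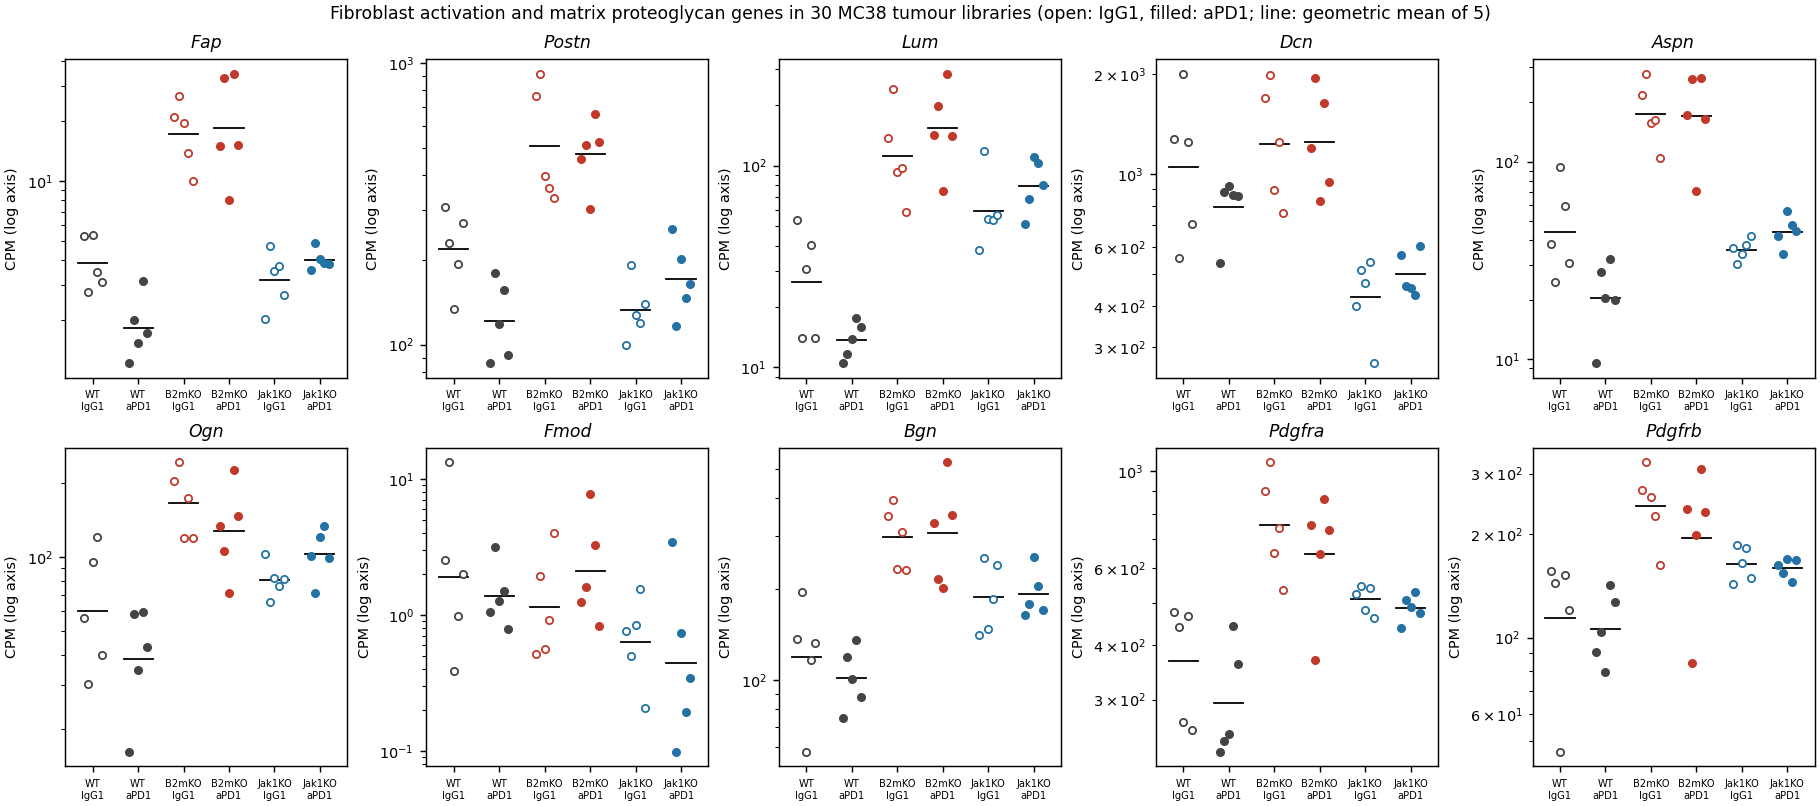
Level of each of the 10 genes in every library, in CPM on a log axis, by group (open circles IgG1, filled circles aPD1; the line is the geometric mean of 5 libraries). Under each antibody the B2mKO libraries stand above WT for Fap, Aspn and Lum, Jak1KO libraries with IgG1 lie below all others with IgG1 for Dcn, and Fmod overlaps between all groups.

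Compared per length of exon, Dcn was the most abundant member in every group, from 75.2 CPM per kilobase in Jak1KO tumours with IgG1 to 225 CPM per kilobase in B2mKO tumours with IgG1. Pdgfra followed in WT and Jak1KO tumours, at 30.4 to 51.0 CPM per kilobase. In B2mKO tumours Aspn reached 78.3 and 79.4 CPM per kilobase with IgG1 and aPD1, against 21.0 and 9.33 in WT tumours. Fap and Fmod were the scarcest, with Fap between 0.341 (WT with aPD1) and 3.75 CPM per kilobase (B2mKO with aPD1) and Fmod between 0.235 and 1.17.

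Fap (ENSMUSG00000000392, chromosome 2, 62500943 to 62574075), the protease by which cancer-associated fibroblasts are often recognised, was higher in every B2mKO library than in every WT library under the same antibody. With IgG1 it was at 5.27, 2.77, 5.34, 3.51 and 3.12 CPM in WT replicates 1 to 5 and at 21.0, 26.6, 19.6, 13.9 and 10.1 CPM in B2mKO replicates 1 to 5. With aPD1 it was at 1.21, 2.00, 1.54, 3.16 and 1.73 CPM in WT, against 15.0, 33.0, 8.00, 34.7 and 15.3 CPM in B2mKO tumours. The lowest B2mKO library was replicate 5 with IgG1 and replicate 3 with aPD1, both above the highest WT library. The difference was 2.18 ± 0.33 with IgG1 (edgeR adjusted p = 2.34e-05) and 3.45 ± 0.35 with aPD1 (edgeR adjusted p = 3.91e-08), 4.54-fold and 10.9-fold. In Jak1KO tumours Fap was at 2.02, 4.70, 3.53, 3.74 and 2.68 CPM with IgG1, within the WT range or below it, and at 3.55, 4.90, 4.08, 3.87 and 3.82 CPM with aPD1, above all WT libraries with aPD1. The aPD1 libraries of Jak1KO tumours lay close together, at 4.04 ± 0.51 CPM (SD).

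Postn (ENSMUSG00000027750, chromosome 3, 54361109 to 54391037), which encodes the matricellular protein periostin, was at 309, 230, 134, 194 and 271 CPM in WT tumours with IgG1, against 766, 919, 398, 360 and 333 CPM in B2mKO tumours with IgG1. Under aPD1 it was at 85.8, 180, 119, 157 and 91.8 CPM in WT and 455, 512, 303, 658 and 523 CPM in B2mKO tumours. The groups did not overlap under either antibody, though 333 and 309 CPM come close with IgG1. The difference was 1.29 ± 0.29 (edgeR adjusted p = 0.00202) with IgG1 and 1.95 ± 0.29 (edgeR adjusted p = 2.04e-05) with aPD1. Jak1KO tumours had the lowest mean with IgG1, at 99.8 to 192 CPM (136 CPM on average). With aPD1 they were at 117 to 257 CPM (177 CPM on average) and overlapped WT, which had the lowest mean (127 CPM). B2mKO tumours exceeded Jak1KO tumours by 2.03 ± 0.29 and 1.47 ± 0.29 (edgeR adjusted p = 5.16e-06 and 0.000303), again without overlap.

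Among the class I SLRPs, Dcn, whose protein decorin binds collagen and growth factors of the TGF-beta family, was lower in Jak1KO than in WT tumours with IgG1, and lower than in B2mKO tumours under both antibodies. With IgG1 it was at 1274, 560, 2004, 1250 and 704 CPM in WT, at 1694, 1980, 895, 1246 and 762 CPM in B2mKO and at 401, 513, 469, 544 and 269 CPM in Jak1KO tumours. Every Jak1KO library was below every WT and B2mKO library, and WT and B2mKO overlapped broadly. Jak1KO was lower than WT by 1.40 on the log2 scale (-1.40 ± 0.30, edgeR adjusted p = 0.00118), and B2mKO was higher than Jak1KO by 1.58 ± 0.30 (edgeR adjusted p = 0.000163). Dcn levels under aPD1 were 537, 880, 922, 861 and 856 CPM in WT, 1197, 1947, 828, 1639 and 947 CPM in B2mKO and 568, 460, 454, 433 and 605 CPM in Jak1KO tumours. WT and Jak1KO then overlapped through WT replicate 1 (537 CPM), and -0.69 ± 0.29 did not pass (edgeR adjusted p = 0.0968), although without the 2 libraries that stand apart it did (0.0338), as in a fit of these 2 groups alone (0.0039). B2mKO against WT with aPD1 was as large in the other direction and not called either (0.69 ± 0.29, edgeR adjusted p = 0.0933). B2mKO remained above Jak1KO without overlap (1.38 ± 0.30, edgeR adjusted p = 0.000751).

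Aspn, the class I member with an aspartate-rich N-terminus, was far above WT in B2mKO tumours. With IgG1 it was at 38.2, 24.7, 93.7, 59.8 and 30.8 CPM in WT, against 217, 279, 158, 163 and 105 CPM in B2mKO tumours. With aPD1 it was at 9.54, 27.5, 20.5, 32.3 and 19.9 CPM in WT, against 173, 262, 70.6, 264 and 165 CPM in B2mKO tumours. The groups did not overlap, and the highest WT library was replicate 3 with IgG1. The difference was 1.90 ± 0.34 with IgG1 (edgeR adjusted p = 0.000219) and 3.09 ± 0.36 with aPD1 (edgeR adjusted p = 3.88e-07). Aspn and Ogn both overlap Cenpp on the opposite strand and the reads were counted without strand, but Cenpp held 3648 counts over all libraries against 55212 for Aspn and 64252 for Ogn.

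Bgn (ENSMUSG00000031375, chromosome X, 73483602 to 73495933), the third class I gene and a ligand of innate immune receptors when shed from matrix, was higher in both kinds of knockout with aPD1. Its aPD1 levels were 75.2, 119, 101, 136 and 88.0 CPM in WT, 331, 216, 202, 526 and 352 CPM in B2mKO and 164, 178, 256, 205 and 170 CPM in Jak1KO tumours. All knockout libraries were above all WT libraries. The difference from WT was 1.65 ± 0.27 for B2mKO (edgeR adjusted p = 5.48e-05) and 0.91 ± 0.26 for Jak1KO (edgeR adjusted p = 0.0133). With IgG1, WT was at 57.9 to 195 CPM and B2mKO at 231 to 394 CPM (1.25 ± 0.26, edgeR adjusted p = 0.00119), and Jak1KO, at 141 to 253 CPM, overlapped WT (0.60 ± 0.26, edgeR adjusted p = 0.109).

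Lum, the class II keratan sulfate proteoglycan lumican, differed most from WT under aPD1. It was at 10.5, 11.6, 13.9, 17.6 and 15.9 CPM in WT tumours with aPD1, at 142, 198, 74.5, 286 and 140 CPM in B2mKO and at 51.6, 68.4, 110, 103 and 79.6 CPM in Jak1KO tumours. Neither knockout group overlapped WT, and the differences were 3.59 ± 0.42 for B2mKO (12.1-fold, edgeR adjusted p = 4.68e-07) and 2.56 ± 0.41 for Jak1KO (5.92-fold, edgeR adjusted p = 2.92e-05). With IgG1 the levels were 53.5, 13.9, 30.6, 40.6 and 13.9 CPM in WT, 137, 239, 93.3, 97.3 and 58.8 CPM in B2mKO and 38.2, 118, 54.2, 53.6 and 57.0 CPM in Jak1KO tumours. B2mKO was again above WT without overlap (2.03 ± 0.39, edgeR adjusted p = 0.000519). Jak1KO overlapped WT, with 1.07 ± 0.39 and an edgeR adjusted p of 0.0518.

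Fmod (ENSMUSG00000041559, chromosome 1, 134037254 to 134048277), the other class II member, is a collagen-binding SLRP known from tendon, and it was called in none of the comparisons. It was counted 2 to 241 times per library. With IgG1 it was at 2.53, 13.3, 0.389, 0.980 and 2.02 CPM in WT tumours, so replicate 2 alone set the group's mean of 3.85 ± 5.37 CPM (SD). In 5 of the 6 groups the library with the most Fmod was also the library with the highest summed level of 10 skeletal muscle markers, as in WT with IgG1 (replicate 2, 533 CPM of muscle markers, the others 8.93 to 149) and Jak1KO with aPD1 (replicate 1, 938 CPM, the others 3.36 to 51.7). For the 9 other members this held in 0 groups (7 members), 1 group (Bgn) or 2 groups (Postn). The match of Fmod was not with muscle markers alone: it held in the same number of groups, 5 of 6, for the pericyte and smooth muscle markers, and in 4 of 6 for endothelial and for T cell markers. Of these markers Tnnc2 was at 0 in every library of 5 groups, all but WT with IgG1. The part of these cell types in the Fmod values was not tested.

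Ogn, the class III member, was at 56.6, 30.4, 95.3, 120 and 40.0 CPM in WT tumours with IgG1, against 203, 243, 119, 173 and 120 CPM in B2mKO tumours, where the highest WT library (replicate 4) lay within the B2mKO range (1.33 ± 0.34, edgeR adjusted p = 0.00605). With aPD1 it was at 16.1, 58.3, 34.8, 59.9 and 43.0 CPM in WT, at 133, 105, 71.1, 226 and 146 CPM in B2mKO and at 100, 71.3, 121, 134 and 99.2 CPM in Jak1KO tumours. Both knockout groups were above WT without overlap. The differences were 1.68 ± 0.34 (edgeR adjusted p = 0.000744) and 1.31 ± 0.34 (edgeR adjusted p = 0.00604), and the knockout groups overlapped each other (0.38 ± 0.33, edgeR adjusted p = 0.425).

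Between B2mKO and WT tumours both receptors differed, by less than the other 6 genes called. Pdgfra, the fibroblast receptor (ENSMUSG00000029231, chromosome 5, 75152292 to 75198215), was at 476, 440, 266, 466 and 256 CPM in WT, against 902, 1050, 650, 743 and 536 CPM in B2mKO tumours with IgG1, without overlap (1.03 ± 0.21, edgeR adjusted p = 0.00104). With aPD1 it was at 228, 242, 250, 442 and 363 CPM in WT, against 754, 370, 646, 863 and 736 CPM in B2mKO tumours, which overlap through B2mKO replicate 2 (1.14 ± 0.21, edgeR adjusted p = 0.000312). Jak1KO tumours were tightly grouped and overlapped both, at 461 to 547 CPM with IgG1 and 438 to 528 CPM with aPD1.

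Pdgfrb, the receptor that also marks pericytes (ENSMUSG00000024620, chromosome 18, 61045150 to 61085061), was at 156, 144, 46.5, 152 and 120 CPM in WT, against 270, 324, 256, 226 and 163 CPM in B2mKO tumours with IgG1, without overlap (1.00 ± 0.26, edgeR adjusted p = 0.00725). With aPD1 it was at 79.4 to 142 CPM in WT, against 236, 84.4, 199, 309 and 232 CPM in B2mKO tumours, and only B2mKO replicate 2 lay in the WT range (0.97 ± 0.26, edgeR adjusted p = 0.00888). The summed level of 12 pericyte and smooth muscle markers did not separate the genotypes, at 99.8 to 264 CPM in WT and 118 to 248 CPM in B2mKO tumours with IgG1, where none of 10 tested markers passed. With aPD1 these ranges were 133 to 283 and 106 to 249 CPM and 4 of the 10 were higher in B2mKO tumours. Their part in the Pdgfrb values was not tested.

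In B2mKO against WT tumours with IgG1, 8 of the 10 members were higher and none was lower, where 21.2% of all genes tested were called and 9.42% were called higher. The 8 were Fap, Postn, Lum, Aspn, Ogn, Bgn, Pdgfra and Pdgfrb. The 2 not called were Dcn (0.18 ± 0.29, edgeR adjusted p = 0.686) and Fmod (-1.24 ± 0.76, edgeR adjusted p = 0.251). The median difference of the 10 members was 1.27, and that of all genes was -0.00078. With aPD1 the same 8 genes were higher and none was lower, where 20.4% of all genes were called and 9.87% were called higher. The median of the 10 members was then 1.66. Dcn (0.69 ± 0.29, edgeR adjusted p = 0.0933) and Fmod (0.93 ± 0.78, edgeR adjusted p = 0.446) were again not called. These 16 calls held in every alternative run, including each library left out in turn. Of the 16 fibroblast markers, 6 were higher and 1 was lower with IgG1 and 7 were higher and 2 lower with aPD1. Of 11 endothelial markers none passed with IgG1 and 7 were higher with aPD1 (summed 140 to 287 CPM in B2mKO and 126 to 197 CPM in WT tumours). A list of 8 skin keratinocyte markers summed to 15.5 to 44.9 CPM in B2mKO and 7.12 to 14.1 CPM in WT tumours with IgG1. Of the 3 that passed the filter, 1 was higher and 1 lower in B2mKO tumours (median -0.57). Dsg3 and Lor were at 0 in all B2mKO libraries. The part of these cell types in the members' differences was not tested.

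**Figure D2:**
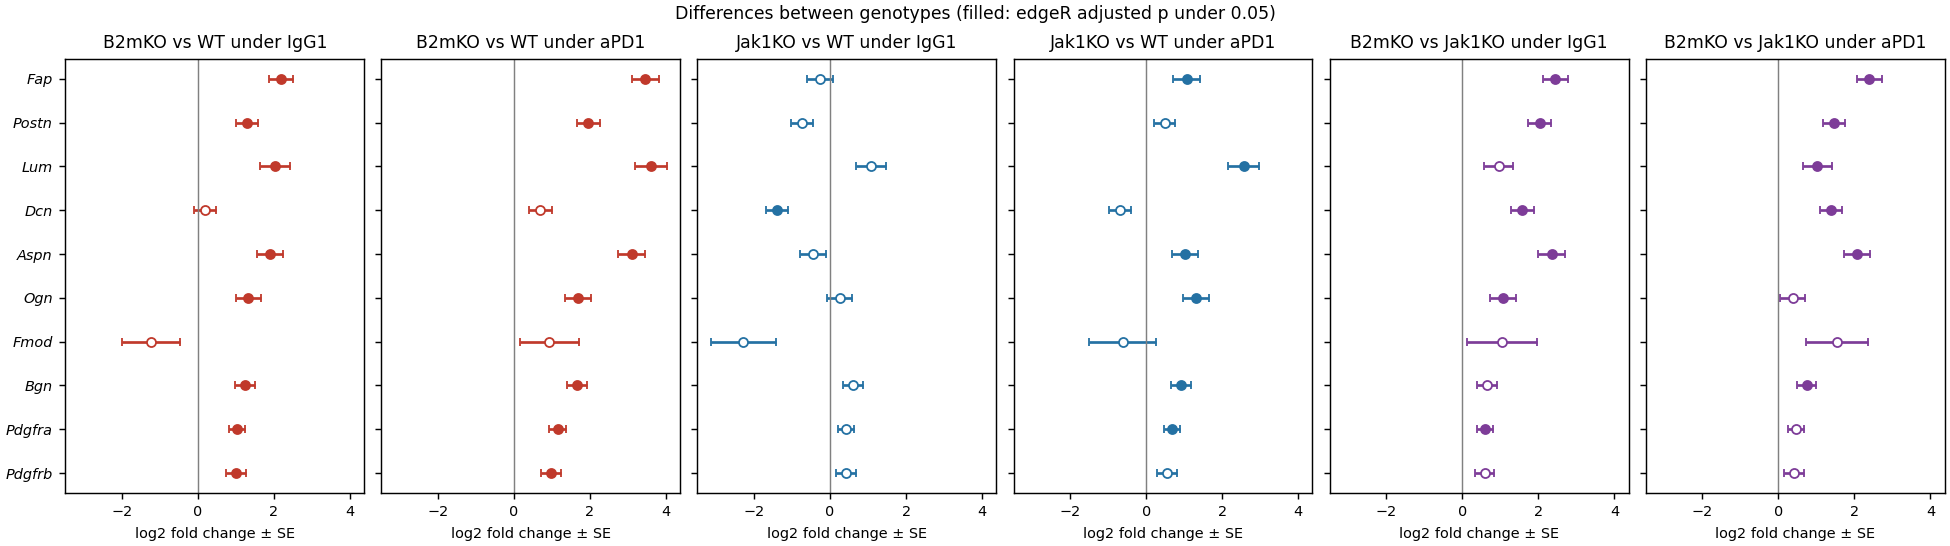
Log2 fold change ± standard error of each gene in the 6 comparisons between genotypes (filled points have an edgeR adjusted p under 0.05). B2mKO tumours are above WT in 8 genes under each antibody, and Jak1KO tumours differ from WT in 1 gene with IgG1 and 6 with aPD1.

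In Jak1KO against WT tumours with IgG1, 1 of the 10 members was called, Dcn, which was lower, where 18.3% of all genes were called. The members pointed both ways, 5 up and 5 down, with a median of -0.01. Lum (1.07 ± 0.39), Postn (-0.75 ± 0.29) and Fmod (-2.28 ± 0.85) came nearest to the threshold, with edgeR adjusted p of 0.0518, 0.0682 and 0.0600. Their calls turned on single libraries. Without WT replicate 3, Postn and Fmod passed (edgeR adjusted p = 0.0374 and 0.0358). Without WT replicate 4, Lum and Fmod did (0.0467 and 0.0394 by edgeR). Lum passed without WT replicate 1 or Jak1KO replicate 1 (edgeR adjusted p = 0.0192 and 0.0396), Postn without Jak1KO replicate 2 (0.0413) and Bgn without WT replicate 2 (0.0349). Without both libraries that stand apart, Postn and Fmod passed (edgeR adjusted p = 0.0258 and 0.027). Cell type markers moved in this comparison too. Of 10 T cell markers 5 were higher and none lower in Jak1KO tumours (median 1.61, summed 11.4 to 43.3 against 6.24 to 14.8 CPM), and of the 16 fibroblast markers 2 were higher and 4 lower (median -0.69, summed 7064 to 9157 against 5429 to 12110 CPM). Their part in the members' values was not tested.

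With aPD1, 6 of the 10 members were higher in Jak1KO than in WT tumours and none was lower, where 20.8% of all genes were called and 8.4% were called higher. They were Fap (1.06 ± 0.36, edgeR adjusted p = 0.0379), Lum, Aspn (1.03 ± 0.34, edgeR adjusted p = 0.0297), Ogn, Bgn and Pdgfra (0.68 ± 0.21, edgeR adjusted p = 0.0230), and the median of the 10 was 0.79. Pdgfrb was not called (0.56 ± 0.26, edgeR adjusted p = 0.134), though its groups did not overlap. It passed without both libraries that stand apart (edgeR adjusted p = 0.00796) and in a fit of these 2 groups alone (0.0112 by edgeR). Lum, Ogn and Bgn kept their calls whichever library was left out. Fap lost its call without WT replicate 1, 2, 3 or 5 or Jak1KO replicate 2, 3, 4 or 5 (edgeR adjusted p from 0.0551 to 0.092). Aspn lost it without WT replicate 1, 3 or 5 or Jak1KO replicate 3 or 4 (0.0584 to 0.088 by edgeR), and Pdgfra without WT replicate 1, 2 or 3 or Jak1KO replicate 4 (0.0534 to 0.0697 by edgeR). Without WT replicate 1 or 3 or Jak1KO replicate 4, 3 members were called. The summed fibroblast markers were at 4555 to 8951 CPM in WT and 8201 to 9369 CPM in Jak1KO tumours with aPD1. Counted gene by gene, 2 of these 16 markers were higher and 3 lower in Jak1KO tumours, with a median of -0.31. Of 12 macrophage markers 1 was higher and 2 were lower. The part of these cells in the members' differences was not tested.

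B2mKO tumours were also above Jak1KO tumours. With IgG1, 6 of the 10 members were higher and none lower, where 28.6% of all genes were called and 14.6% were called higher: Fap (2.45 ± 0.33, edgeR adjusted p = 1.87e-06), Postn, Dcn, Aspn (2.35 ± 0.35, edgeR adjusted p = 6.51e-06), Ogn (1.08 ± 0.34, edgeR adjusted p = 0.0163) and Pdgfra (0.60 ± 0.21, edgeR adjusted p = 0.0326). The median of the 10 was 1.06, and Fap, Postn, Dcn, Aspn and Ogn had groups that did not overlap. Ogn lost its call without B2mKO replicate 2 (edgeR adjusted p = 0.0576), and Pdgfra without B2mKO replicate 1 or 2 or Jak1KO replicate 1, 3 or 5 (0.0523 to 0.123 by edgeR). Without B2mKO replicate 2, the library highest for 9 of the 10 members, 4 were called. Without B2mKO replicate 5, the lowest for 8, 9 were called, with Lum, Bgn and Pdgfrb added (edgeR adjusted p = 0.0261, 0.0461 and 0.0488). Without Jak1KO replicate 2, Lum and Bgn were added (0.0143 and 0.0434 by edgeR), and without B2mKO replicate 3, Bgn was (0.0488). Without both libraries that stand apart, Lum, Bgn and Pdgfrb were added (edgeR adjusted p = 0.0421, 0.0152 and 0.00192) and 9 were called, as they were in a fit of these 2 groups alone (0.0485, 0.0166 and 0.00701 by edgeR). Of the 16 fibroblast markers 8 were higher and 2 lower in B2mKO than in Jak1KO tumours, under each antibody.

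With aPD1, 6 of the 10 were again higher in B2mKO than in Jak1KO tumours and none lower, where 28.8% of all genes were called and 15.1% were called higher. The 6 were Fap (2.39 ± 0.32, edgeR adjusted p = 2.27e-06), Postn, Lum (1.03 ± 0.38, edgeR adjusted p = 0.0424), Dcn, Aspn (2.06 ± 0.34, edgeR adjusted p = 3.83e-05) and Bgn (0.74 ± 0.26, edgeR adjusted p = 0.0328), and the median of the 10 was 1.20. Fap, Postn, Dcn and Aspn did not overlap and kept their calls in every alternative run. Lum lost its call without B2mKO replicate 2 or 4 or Jak1KO replicate 1, 2 or 5 (edgeR adjusted p from 0.0646 to 0.159). Bgn lost it without B2mKO replicate 1, 4 or 5 or Jak1KO replicate 1, 2, 4 or 5 (0.0516 to 0.156 by edgeR). Without B2mKO replicate 4, or Jak1KO replicate 2 or 5, 4 members were called. Without B2mKO replicate 2, Pdgfra and Pdgfrb were called (edgeR adjusted p = 0.0147 and 0.0361), and without Jak1KO replicate 1, Fmod was (0.0223). Without both libraries that stand apart, Lum lost its call (edgeR adjusted p = 0.0526) and Pdgfra and Pdgfrb gained theirs (0.0069 and 0.00225), so 7 were called. The endothelial markers moved with this comparison as well, with 7 of 11 higher in B2mKO tumours (summed 140 to 287 against 103 to 149 CPM), and their part was not tested.

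**Figure D3:**
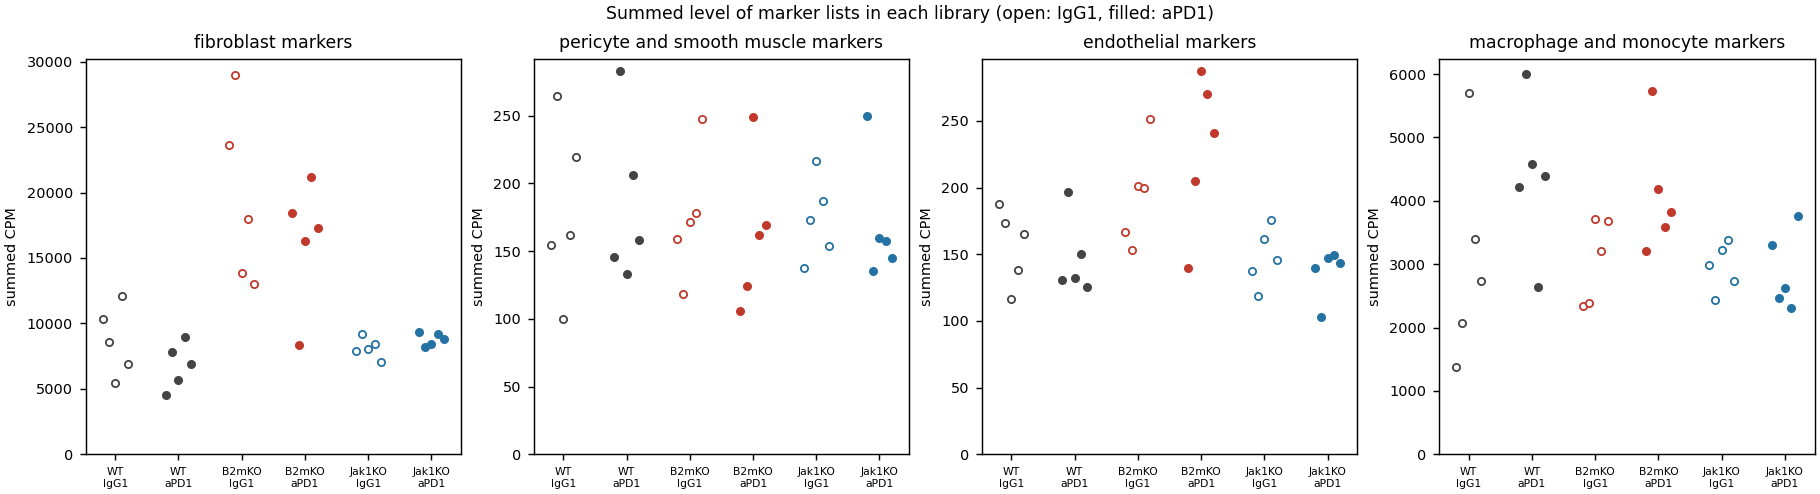
Summed CPM of 4 marker lists in each library (open circles IgG1, filled circles aPD1). The median fibroblast sum is highest in B2mKO tumours, at 13040 to 28970 CPM with IgG1 and 8320 to 21170 CPM with aPD1. The lowest of these, B2mKO with aPD1 replicate 2, lies within the WT range with aPD1. The pericyte and smooth muscle sum overlaps between all groups. The macrophage sum is highest in WT with aPD1 replicate 2 (6006 CPM), followed by B2mKO with aPD1 replicate 2 (5736 CPM) and WT with IgG1 replicate 3 (5705 CPM).

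Between the antibodies, Aspn was called in WT tumours and no member was called in the knockouts. In WT tumours 1 of the 10 members was called, Aspn, which was lower with aPD1 (-1.17 ± 0.34, edgeR adjusted p = 0.0444), where 4.38% of all genes were called and 0.632% were called lower. All 10 point estimates were below 0, from -1.29 (Fmod) to -0.19 (Pdgfrb), with a median of -0.77 against -0.03 over all genes. The Fmod estimate ran from -1.72 to 0.008 with single libraries left out. All 10 genes overlapped between the antibodies. The levels of Aspn (24.7 to 93.7 CPM with IgG1 and 9.54 to 32.3 CPM with aPD1) overlapped too, with all 5 aPD1 libraries below the IgG1 median. The Aspn call was lost without aPD1 replicate 1, 2, 3 or 5 and without IgG1 replicate 1, 3 or 4 (edgeR adjusted p from 0.0634 to 0.199), in a fit of the WT libraries alone (0.217) and without WT IgG1 replicate 3 and B2mKO aPD1 replicate 2 (0.157). Fap (-1.05 ± 0.37) passed without WT aPD1 replicate 4 (edgeR adjusted p = 0.0427 in place of 0.108), and Postn (-0.85 ± 0.29) without WT IgG1 replicate 3 (0.0467 in place of 0.0961) and without both libraries that stand apart (0.0414). Of the macrophage markers 3 of 12 were higher with aPD1 (summed 2634 to 6006 CPM against 1385 to 5705 CPM) and of the T cell markers 1 of 10 (summed 9.14 to 50.0 against 6.24 to 14.8 CPM), and their part in the members' values was not tested.

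In B2mKO tumours none of the 10 members was called between antibodies by edgeR's test, nor at an unadjusted p under 0.05 nor by DESeq2, where 0.0% of all genes were called. The point estimates ran from -0.33 (Ogn) to 0.87 (Fmod). In Jak1KO tumours none of the 10 was called either, nor at an unadjusted p under 0.05 nor by DESeq2, where 0.0% of all genes were called, and 516 and 174 of all genes had an unadjusted p under 0.05 in the B2mKO and Jak1KO comparisons. There the estimates ran from -0.07 (Pdgfra) to 0.38 (Postn).

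Whether the aPD1 effect itself differed between genotypes was tested as an interaction. None of the 10 members passed for B2mKO minus WT, where 0.103% of all genes were called. An unadjusted p under 0.05 was found for 3 members and for 2560 of the 15505 genes tested. Fmod had the largest difference of effects with a wide error (2.17 ± 1.08, edgeR adjusted p = 0.307). With single libraries left out it ran from 0.86 to 2.83. Next came Lum (1.56 ± 0.54, edgeR adjusted p = 0.228), Fap (1.27 ± 0.47, edgeR adjusted p = 0.245) and Aspn (1.19 ± 0.47, edgeR adjusted p = 0.261). For Jak1KO minus WT none passed, where 0.0% of all genes were called. Here 5 members and 1286 of all genes tested had an unadjusted p under 0.05. The 5 were Fap, Postn, Lum, Aspn and Ogn. Their differences ran from 1.06 ± 0.47 (Ogn) to 1.49 ± 0.55 (Lum), with edgeR adjusted p from 0.314 to 0.555. DESeq2 called none of the 10 in either test. The WT libraries enter both of these differences. The gap between knockouts and WT, larger with aPD1 than with IgG1 in Fap and Lum, was therefore not shown to differ between antibodies.

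**Figure D4:**
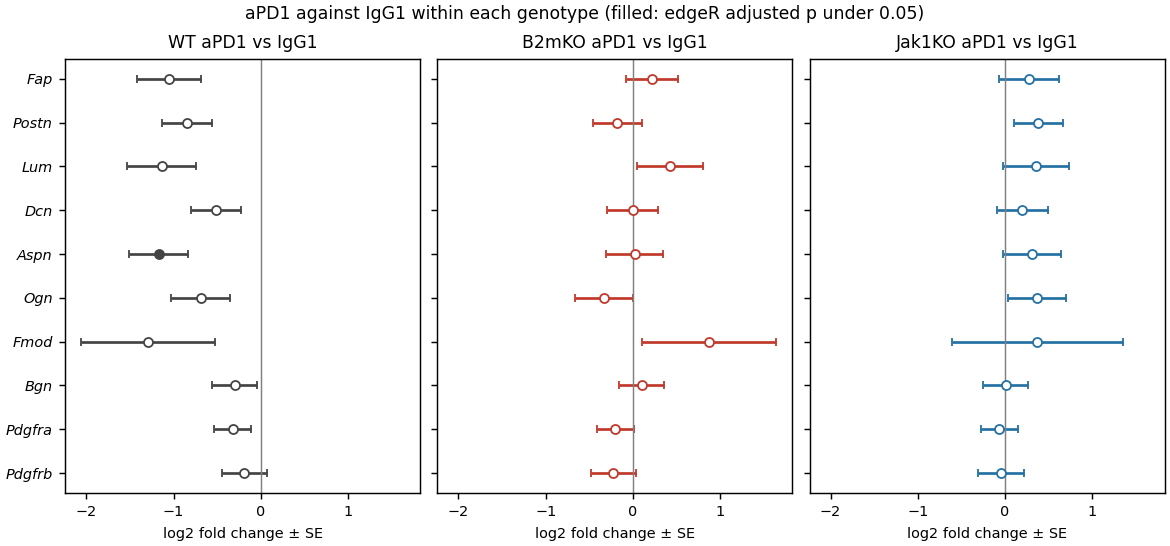
Log2 fold change ± standard error of aPD1 against IgG1 for each gene, by genotype (filled point: edgeR adjusted p under 0.05). The 10 WT estimates lie below 0 and 1 of them, Aspn, is called; in B2mKO and Jak1KO tumours they lie on both sides of 0 and none is called.

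Ratios of 2 members within a library do not depend on library scaling. They separated genotypes in some pairs, both of neighbouring genes and of genes on different chromosomes (Bgn and Dcn). The 4 pairs were chosen after the values were seen, and 36 exact two-sided permutation tests were made over libraries, for which 5 against 5 allows no p below 0.00794. The adjustment over these tests does not cover that choice, so the p-values describe the separation and are not separate evidence for it. The ratio of Lum to Dcn counts was 0.0153 to 0.0420 in WT tumours with IgG1 and 0.0132 to 0.0204 with aPD1. It was 0.0772 to 0.121 in B2mKO and 0.0953 to 0.230 in Jak1KO tumours with IgG1, and 0.0899 to 0.174 and 0.0908 to 0.242 with aPD1. No knockout library overlapped WT, so Lum was raised relative to its neighbour Dcn in both kinds of knockout, 3.59-fold and 5.53-fold with IgG1 and 7.16-fold and 9.29-fold with aPD1 (exact permutation p = 0.00794 for each, 0.0317 after Benjamini-Hochberg adjustment over the 36 tests). In Jak1KO against WT tumours with IgG1, Dcn was at -1.40 (439 against 1158 CPM on average) and Lum at 1.07 (64.2 against 30.5 CPM, not called). In B2mKO against WT tumours with IgG1, Dcn was at 0.18 (not called) and Lum at 2.03. With aPD1 Lum was at 2.56 in Jak1KO and 3.59 in B2mKO tumours, and Dcn, not called in either, at -0.69 and 0.69.

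Ogn and Aspn, neighbours on chromosome 13, also differed in ratio between genotypes. The ratio of Ogn to Aspn counts was 0.756 to 1.14 in B2mKO and 1.93 to 2.81 in Jak1KO tumours with IgG1, and 0.402 to 1.01 and 2.08 to 2.81 with aPD1, against 1.02 to 2.01 and 1.69 to 2.16 in WT tumours. B2mKO was below Jak1KO without overlap under both antibodies (0.420-fold and 0.323-fold) and below WT with aPD1 (0.396-fold), each at an exact permutation p of 0.00794 (0.0317 adjusted). With IgG1 the ranges of B2mKO and WT met (0.688-fold), as did those of Jak1KO and WT, which differed the other way (1.64-fold), each with an exact permutation p of 0.0238 and 0.0714 adjusted. With aPD1 Jak1KO was at 1.23-fold of WT (exact permutation p = 0.0397, 0.0952 adjusted). The ratio of Bgn to Dcn was higher in Jak1KO than in WT tumours with aPD1 (3.01-fold) and lower in B2mKO than in Jak1KO tumours with IgG1 (0.545-fold), both without overlap (exact permutation p = 0.00794, 0.0317 adjusted). Against WT with IgG1 the Bgn to Dcn ratio of Jak1KO tumours was 3.88-fold with overlap (exact permutation p = 0.0238, 0.0714 adjusted). For Pdgfra to Pdgfrb no comparison passed, with an exact permutation p of at least 0.0794 and folds from 0.860 to 1.20, and medians of 2.85 to 3.29 over the 6 groups.

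**Figure D5:**
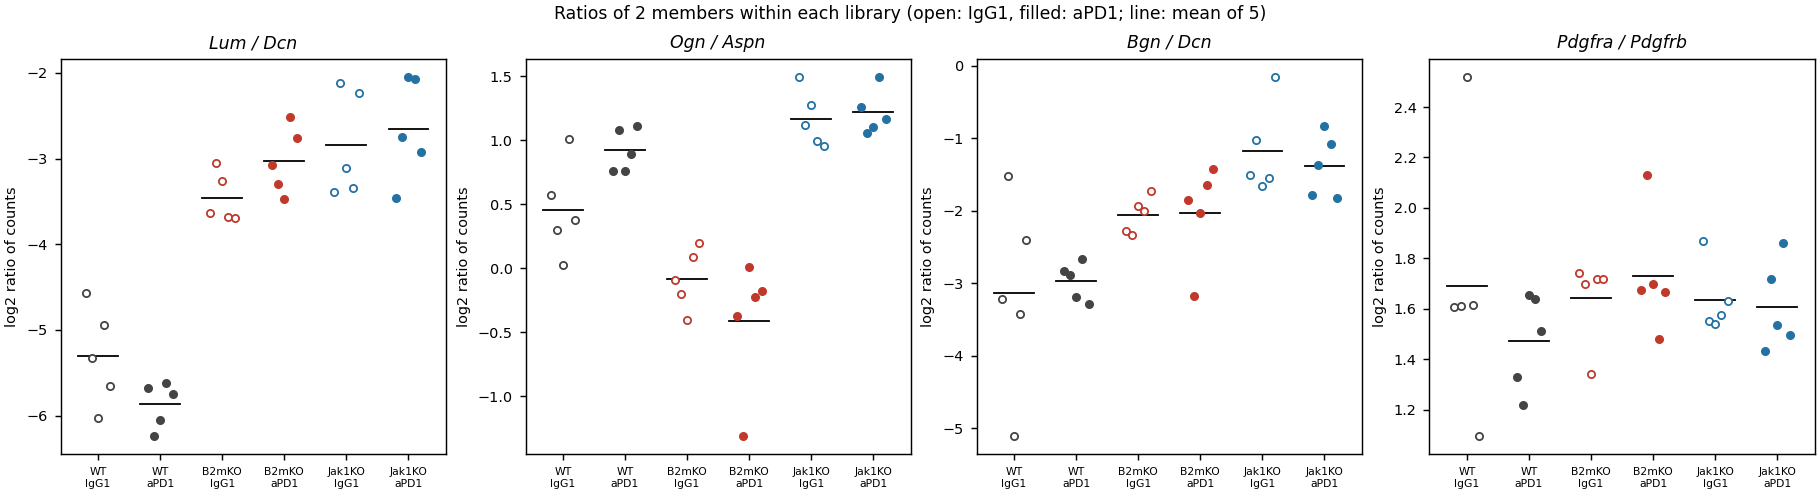
Log2 ratio of the counts of 2 genes in each library (open circles IgG1, filled circles aPD1; the line is the mean of 5). Lum to Dcn is higher in every knockout library than in every WT library, Ogn to Aspn is lower in B2mKO than in Jak1KO libraries, and Pdgfra to Pdgfrb overlaps between all groups.

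The lists of related genes are to be read against the shares of all genes called higher in B2mKO tumours, 9.42% and 9.87% against WT and 14.6% and 15.1% against Jak1KO tumours, with IgG1 and aPD1 in turn. Called lower were 11.7%, 10.5%, 14.1% and 13.7%. Of the other SLRPs, 8 of 11 passed the filter, and 3 were higher and 1 lower in B2mKO tumours than in WT under aPD1 (median 0.44). With IgG1, 1 was higher and 1 lower (median -0.05). Against Jak1KO tumours, 2 were higher and 2 lower in B2mKO tumours with IgG1 (median -0.21). With aPD1 none was higher and 1 was lower (median -0.22). Kera, a corneal keratan sulfate SLRP of the Lum and Dcn cluster, was at 0.00942 ± 0.0211 CPM (SD) in WT, 0.284 ± 0.200 in B2mKO and 1.57 ± 0.928 in Jak1KO tumours with aPD1. With IgG1 it averaged 0.206 CPM in WT, 0.136 in B2mKO and 1.19 in Jak1KO tumours. It is 1 of the 3 SLRPs called higher in B2mKO tumours (4.25 ± 1.27, edgeR adjusted p = 0.0173), a call made between levels near 0. Ecm2, an SLRP relative of the Aspn and Ogn cluster, averaged 0.897 ± 0.839 CPM in WT and 2.07 ± 0.34 CPM in B2mKO tumours with aPD1 (1.20 ± 0.36, edgeR adjusted p = 0.0180). Of 16 tested proteoglycans of other families, 8 were higher and none lower in B2mKO than in Jak1KO tumours with IgG1 (median 0.32), with the heparan sulfate carriers Gpc1 (0.90 ± 0.17, edgeR adjusted p = 0.000156) and Sdc2 (0.84 ± 0.18, edgeR adjusted p = 0.000588). Against WT, 1 of these 16 was higher in B2mKO with IgG1 and none differed with aPD1. In Jak1KO against WT tumours with IgG1, 2 were higher and 4 lower (median -0.17), where 7.27% of all genes were called higher and 11.0% lower. There Gpc1 was at -0.75 ± 0.17 and Sdc2 at -0.61 ± 0.18. Of 20 tested genes of glycosaminoglycan synthesis, 6 were higher and 1 lower in B2mKO than in Jak1KO tumours with IgG1 (median 0.27), 7 of 20 in either direction where 28.6% of all genes were called: Dsel, a dermatan sulfate epimerase relative, was at 0.64 ± 0.11 and Csgalnact1, which starts chondroitin chains, at -0.95 ± 0.16 (edgeR adjusted p = 5.84e-05 and 5.39e-05).

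The partners of the members were counted in the same way. Of 21 fibrillar collagen and collagen maturation genes, 7 were above WT in B2mKO tumours with IgG1 and 10 with aPD1, and 15 were higher than in Jak1KO tumours with IgG1 (median 0.83), with none lower in any of the 3. Among the 15 were the crosslinking oxidase Loxl3 (1.14 ± 0.14, edgeR adjusted p = 6.71e-07) and the procollagen C-proteinase Bmp1 (0.79 ± 0.10, edgeR adjusted p = 1.07e-06). Jak1KO tumours with IgG1 had 5 of the 21 lower than WT and 0 higher (median -0.48), and the median of B2mKO against WT was 0.24. Of 18 matricellular genes, 11 were higher and 1 lower in B2mKO than in Jak1KO tumours with aPD1 (median 0.83). Tnc, which encodes tenascin C, a partner of periostin, was at 161 ± 64.8 CPM in B2mKO and 16.9 ± 8.16 CPM in Jak1KO tumours (3.24 ± 0.50, edgeR adjusted p = 1.34e-05), and Ccn4, a secreted target of Wnt signalling, was higher by 0.85 ± 0.18 (edgeR adjusted p = 0.000843). Tnc was at 49.2 CPM in WT tumours with aPD1. Against WT with aPD1, 7 of the 18 were higher and 2 lower in B2mKO tumours (median 0.51). In Jak1KO tumours 2 were higher and 4 lower (median -0.23), where 8.4% of all genes were called higher and 12.4% lower. Of 17 tested TGF-beta genes, 9 were higher and none lower in B2mKO tumours than in WT under IgG1 (median 0.31), led by the latent TGF-beta binding protein Ltbp1 (1.94 ± 0.18, edgeR adjusted p = 1.06e-08) and the feedback inhibitor Skil (0.51 ± 0.08, edgeR adjusted p = 3.46e-05). Under aPD1, 5 of the 17 were higher than in WT and none lower (median 0.17). Against Jak1KO tumours 6 were higher with IgG1 and 5 with aPD1, with none lower (medians 0.36 and 0.25).

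Of 16 genes of the PDGF ligands and pathway, 1 was higher and 1 lower in B2mKO tumours than in WT under IgG1 (median 0.15), and 4 were higher and 2 lower under aPD1 (median 0.16). Against Jak1KO tumours, 5 were higher and 1 lower in B2mKO tumours with IgG1 (median 0.18), and 4 were higher and 1 lower with aPD1 (median 0.21). In Jak1KO against WT tumours with IgG1, 2 were higher and 5 lower (median -0.11), where 7.27% of all genes were called higher and 11.0% lower. Pdgfd, a ligand of the beta receptor and the 1 gene lower in B2mKO tumours than in WT under IgG1 (-2.35 ± 0.36, edgeR adjusted p = 3.87e-05), also fell in Jak1KO tumours from 4.39 ± 1.60 to 0.747 ± 0.334 CPM (SD; -2.54 ± 0.37, edgeR adjusted p = 1.40e-05). Pik3r1, a regulatory subunit of PI3-kinase, rose (1.05 ± 0.19, edgeR adjusted p = 0.000215). Of 5 tested relatives of Fap, none was higher and 2 were lower in B2mKO than in Jak1KO tumours with aPD1: the peptidases Prep (-0.49 ± 0.12, edgeR adjusted p = 0.00316) and Dpp9 (-0.50 ± 0.17, edgeR adjusted p = 0.0297). Fap itself was higher by 2.39 in that comparison.

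The genes whose pattern over the 30 libraries was most like the mean of the members were Hc, Col3a1, Calcrl, H19 and Egr2. Likeness was the root mean square difference between centred log2 CPM values, which was 0.309 for Hc (complement C5), 0.311 for Col3a1 (type III collagen), 0.311 for Calcrl (a receptor for adrenomedullin), 0.316 for the imprinted RNA H19 and 0.332 for the transcription factor Egr2, with a median of 0.795 over the 10350 genes compared. The members themselves, which make up that mean, ranged from 0.358 (Postn) and 0.408 (Bgn) to 0.815 (Lum) and 1.39 (Fmod).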

How the data were processed

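RNA of 30 tumour libraries was read as raw gene counts, which the authors made with featureCounts 2.0.0 on Ensembl GRCm38 release 99 without strand and without multi-mapping reads, per the file headers. The submitters' processing notes list STAR 2.5.2a and mm10. The members and gene lists were chosen with earlier results of these data known. Symbols were matched on the Ensembl identifier (327 identifiers, with 0.047% of the counts, had none). The file header of WT aPD1 replicate 2 carries the name of another alignment file, and its counts were used as deposited. In R 4.3.3, edgeR 4.0.16 filtered genes (filterByExpr, minimum count 10, minimum total 15), scaled by TMM (0.939 to 1.04) and fitted all 30 libraries with 6 group means. CPM are edgeR's. Each standard error is the absolute log2 fold change over the square root of F. The steps were tested on simulated data. DESeq2 1.42.0 and 6 other settings, with each library left out in turn, were alternatives, of which edgeR's legacy fit was chosen after seeing the data. The 2 libraries that stand apart were picked from values of these data. Named genes were the 10 members, at most 2 genes per list with the smallest p in the comparison with most calls, and the 5 most like the members. Ratios are of counts, not corrected for length.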

Additional observations from a re-analysis of the deposited data

Results flagged for a closer look

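Over the 60 sets of 5 libraries (10 genes in 6 groups), 2 held a library whose gap to its nearest neighbour exceeded 0.71 of the set's range on the log2 scale; about 1 in 20 would do so by chance. Dcn in WT aPD1 replicate 1 was at 537 CPM, with the other 4 libraries at 856 to 922 CPM (gap 0.862 of the range). Pdgfrb in WT IgG1 replicate 3 was at 46.5 CPM, with the others at 120.0 to 156 CPM (gap 0.781 of the range).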

How the results depend on the processing

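Of the 36 calls made in members over the 11 comparisons, 28 held in every alternative and 8 were lost in at least 1; of 74 values not called, 14 were called in at least 1 and 12 changed sign, and no called value changed sign. For aPD1 in WT tumours the count of members called, 1, was 0 with no filter beyond 1 count, with the replicate number as a block and with only the groups compared, 2 with DESeq2, 1 with both libraries that stand apart (WT IgG1 replicate 3, B2mKO aPD1 replicate 2) left out, where Postn passed (adjusted p = 0.0414) and Aspn did not, and 0 to 2 leaving out single libraries. For Jak1KO against WT with IgG1 the count, 1, was 3 with both of these libraries left out and 3 with DESeq2, and 1 to 3 leaving out single libraries. Leaving out single libraries gave 3 to 6 for Jak1KO against WT with aPD1, 4 to 9 for B2mKO against Jak1KO with IgG1 and 4 to 7 with aPD1. Replicate numbers did not pair the libraries (median correlation -0.00 over 75 pairs with the same number, -0.59 to 0.46; the best match was the own number in 30 of 150); beyond Aspn in WT tumours (adjusted p = 0.0604), the block ended the call of Lum in B2mKO against Jak1KO with aPD1 (0.0646). Over all genes, fits of only the groups compared called 63 in place of 679 for aPD1 in WT tumours, 1476 in place of 3280 and 1811 in place of 3162 for B2mKO against WT with IgG1 and aPD1, and 1655 in place of 2839 for Jak1KO against WT with IgG1. They called more for Jak1KO against WT with aPD1 (4804 in place of 3218) and for B2mKO against Jak1KO with IgG1 (6267 in place of 4441), and fewer with aPD1 (3404 in place of 4462). Without both libraries that stand apart, 5298 in place of 3218 were called for Jak1KO against WT with aPD1. Leaving out single libraries gave 229 (WT aPD1 replicate 2) to 1110 (WT aPD1 replicate 4) for aPD1 in WT tumours. For the interactions it gave 0 to 155 in place of 16 and 0 to 127 in place of 0, DESeq2 gave 114 and 47, and the first was 9 or 10 in 3 other settings. The total counts limit Fmod most, at 2 to 241 counts per library.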
